A study of Mus musculus with 15 samples.

Results

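The transcripts described are those of 10 genes of the SCF ubiquitin ligases, taken by name from a fixed list: the 3 core subunits Skp1 (listed in the files' annotation as Skp1a), Cul1 and Rbx1, and the 7 conserved F-box genes Btrc, Fbxw7, Fbxw11, Fbxo5, Fbxo30, Fbxo34 and Fbxo43. All 10 were found among the 53700 genes counted, and all 10 passed the filter on low counts in every comparison. They were measured in mouse GV oocytes (germinal vesicle stage, full size but still arrested in prophase of meiosis) in libraries of polyadenylated RNA, each made from 15 cells. The Padi6 mice were FVB/N, with 3 biological replicates of Padi6 heterozygotes (het) and 3 of Padi6 knockouts (KO). The Tle6 mice were C57BL/6J, with 2 biological replicates of Tle6 heterozygotes and 4 of Tle6 knockouts, and both het replicates and KO replicate 4 were sequenced as technical libraries A and B, which were added together. By their titles (+/-) the controls of both lines therefore carry the targeted allele on a single chromosome, and no wild-type group is compared. The sample codes in the same titles, however, read WT for these controls. The labels give neither the design of the alleles nor the ages of the animals, and they do not say whether replicates came from separate animals, so the p-values measure the spread between samples that are labelled biological replicates.

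SCF ligases attach ubiquitin chains to proteins and so mark them for the proteasome. CUL1 is the scaffold, RBX1 the RING subunit at its C-terminal end that recruits the ubiquitin-loaded E2 enzyme, and SKP1 the adaptor at the N-terminal end that holds an exchangeable F-box protein, which binds the substrate. In oocytes this machinery meets the anaphase-promoting complex, the other large ligase of the cell cycle: EMI1 (Fbxo5) and EMI2 (Fbxo43) are F-box proteins known mainly as inhibitors of that complex, and β-TrCP (Btrc and Fbxw11) directs the destruction of both inhibitors. PADI6 and TLE6 are maternal proteins needed for the cytoplasmic lattices, the fibres that fill the oocyte cytoplasm and that the study's title names as protein stores. The comparisons below concern the messenger RNA of the ligase genes with and without these proteins, not the ligase proteins.

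The start-proximal sequence of 4 genes is printed because their levels carry the patterns described below: Skp1 and Fbxo34 differed most between replicates of the Tle6 knockouts, and Fbxo5 and Fbxo30 were lower in every Tle6 knockout than in either Tle6 het replicate. Fbxw7, which was lower in the same way, has several annotated starts and is not printed. Each line holds the 250 bases before the annotated transcript start, 5′ to 3′ on the strand of the gene, from RefSeq on GRCm38.p6, a build other than the one the reads were aligned to. Capitals mark matches, on either strand, to the CCAAT box (CCAAT, which reads ATTGG on the opposite strand), the CHR element of cell-cycle promoters (TTTGAA), the cAMP response element (TGACGTCA) and the TATA box (TATAAA).
Skp1, chr11:52231745-52231994, plus strand: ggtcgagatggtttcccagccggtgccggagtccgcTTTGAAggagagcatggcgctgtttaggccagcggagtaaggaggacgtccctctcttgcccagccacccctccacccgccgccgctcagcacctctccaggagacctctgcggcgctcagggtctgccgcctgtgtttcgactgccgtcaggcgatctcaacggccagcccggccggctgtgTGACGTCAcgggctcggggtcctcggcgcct
Fbxo34, chr14:47472311-47472560, plus strand: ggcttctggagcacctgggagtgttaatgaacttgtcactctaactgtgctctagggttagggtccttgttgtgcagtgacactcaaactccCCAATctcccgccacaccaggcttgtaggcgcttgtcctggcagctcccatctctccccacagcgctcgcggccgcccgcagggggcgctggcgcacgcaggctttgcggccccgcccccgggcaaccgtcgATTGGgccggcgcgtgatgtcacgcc
Fbxo5, chr10:5805466-5805715, minus strand: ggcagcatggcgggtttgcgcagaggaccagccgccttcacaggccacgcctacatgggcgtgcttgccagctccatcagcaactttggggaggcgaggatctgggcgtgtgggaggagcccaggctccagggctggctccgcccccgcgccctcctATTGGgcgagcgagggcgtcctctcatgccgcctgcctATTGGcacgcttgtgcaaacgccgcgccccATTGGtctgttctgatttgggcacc
Fbxo30, chr10:11281337-11281586, plus strand: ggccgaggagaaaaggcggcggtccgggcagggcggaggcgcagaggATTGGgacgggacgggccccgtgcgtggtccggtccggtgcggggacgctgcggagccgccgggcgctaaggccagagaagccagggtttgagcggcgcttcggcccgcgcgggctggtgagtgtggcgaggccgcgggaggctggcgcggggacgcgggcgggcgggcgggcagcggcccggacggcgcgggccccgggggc

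The Fbxo5 window held 3 CCAAT matches, with their leftmost bases at -93, -55 and -25 from the start, the Fbxo34 window 2, at -158 and -26, and the Fbxo30 window 1, at -203. The Skp1 window held no CCAAT, but 1 TTTGAA at -214 and 1 TGACGTCA at -31. Of 32851 promoter windows of the same length in the same table, 33.8% held CCAAT, 16.0% TTTGAA, 12.4% TATAAA and 1.55% TGACGTCA. Among all 8 members with an entry (every member apart from Btrc and Fbxo43), Rbx1 also held 1 CCAAT, and no window held TATAAA. No window of Fbxw7 held CCAAT, so that string was not shared by all the genes lower in the Tle6 knockouts. The E-box CANNTG, searched on both strands too, is present in 66.2% of all windows and lay in the windows of Cul1, Rbx1, Fbxw7, Fbxw11 and Fbxo34, in Cul1 and Fbxw7 at 1 of several annotated starts. A match is a string of letters, and no binding was measured here.

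The targeted genes followed the labels. Padi6 stood at 1750, 1590 and 1670 CPM (counts per 1e6 gene counts, scaled between samples by the trimmed mean of M values, TMM) in the Padi6 het replicates and at 24.8, 23.5 and 18.7 in the Padi6 KO replicates, a log2 fold change of -6.22 ± 0.14 (SE; adjusted p = 1.24e-08, edgeR). Tle6 stood at 457 and 429 TMM-scaled CPM in the Tle6 het replicates and at 91.4, 76.4, 61.1 and 97.0 in the Tle6 KO replicates, a log2 fold change of -2.40 ± 0.21 (adjusted p = 1.67e-03). Depth ran from 30100177 to 74947533 gene counts per library. The 14 oocyte markers summed to between 12000 and 21400 CPM per library and none was at 0, whereas 19 granulosa and cumulus markers summed to 90.1 to 139 CPM, 14 theca and stroma markers to 4.39 to 12.5 and 13 blood and immune markers to 0.654 to 2.74.

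Before the results of the Tle6 line, 1 library needs naming. The technical libraries A and B of the 2nd Tle6 het sample, replicate 2, correlated at 0.910 over 9540 genes, whereas A and B of het replicate 1 correlated at 0.999 and A and B of KO replicate 4 at 0.998. Library A of het replicate 2 was closer to KO replicates 2 and 3 (0.949 and 0.940) than to its own library B. Its Tle6 level was nevertheless that of a heterozygote, 591 TMM-scaled CPM against 308 in library B, 411 and 460 in the libraries of het replicate 1 and 60.4 to 99.0 in the KO libraries. Values of the Tle6 comparisons that moved with 1 of these libraries are given without it.

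Per kilobase of exon, the adaptor and the scaffold were the most abundant members and the WD40-repeat F-box genes the least, and the top 3 and the bottom 2 genes were the same in all 4 groups. In the Padi6 het oocytes Skp1 stood highest, at 718 ± 18.8 TMM-scaled CPM per kb (SD, n = 3), followed by Cul1 at 345 ± 35.9 and Fbxo34 at 117 ± 8.06. These 3 genes did not overlap with their neighbours in the order in any group. Fbxo5 followed at 71.1 ± 6.70. Fbxo30 at 35.6 ± 1.68, Rbx1 at 35.5 ± 1.13 and Fbxo43 at 31.0 ± 4.71 overlapped in their replicates, so their order within the Padi6 het group is not resolved. Btrc stood at 18.5 ± 2.73, and Fbxw11 at 6.50 ± 0.416 and Fbxw7 at 5.48 ± 1.46 shared the bottom of the range in all 4 groups, with overlapping replicates in each. When the length of the principal transcript was used in place of all exons, the top 3 genes kept their places and Fbxw11 and Fbxw7 had the lowest means in each group, but Fbxw7 overlapped with Fbxo43 in the Tle6 het group (24.8 to 31.4 against 22.7 to 33.7) and in the Tle6 KO group (13.0 to 18.7 against 18.5 to 30.5). The places of the other 5 genes depend on that choice, mostly through Btrc and Rbx1. Btrc has 16908 bases of annotated exon and a principal transcript of 2978, and Rbx1 has 4551 and 1675. On the principal transcript they stood at 105 and 96.3 TMM-scaled CPM per kb in the Padi6 het group, above Fbxo5 at 73.4.

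**Figure D1:**
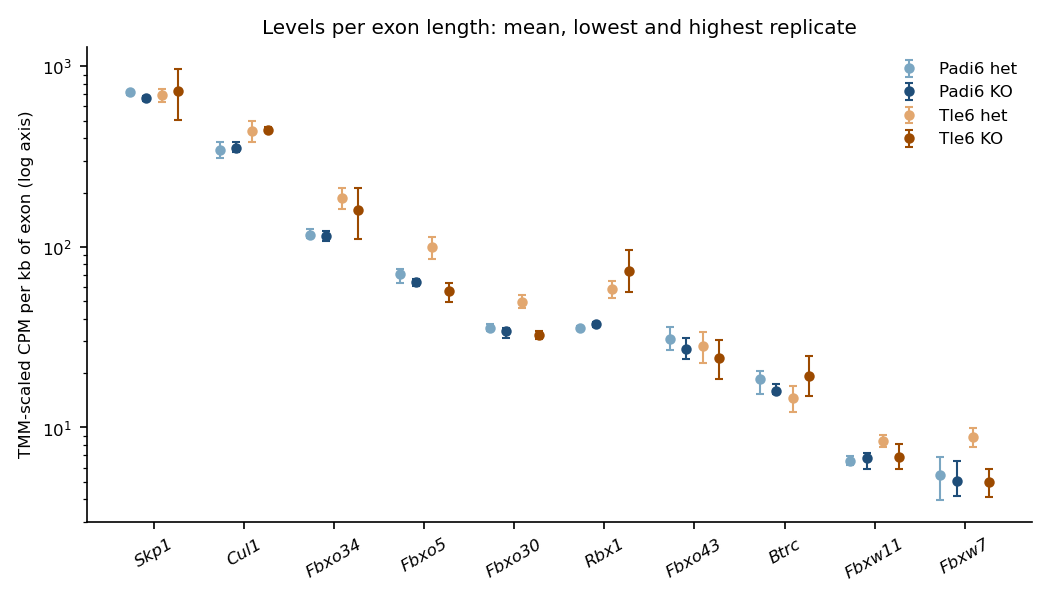
Level of each member per kilobase of annotated exon (TMM-scaled CPM per kb, log axis) in the 4 groups, with genes on the horizontal axis in the order of the Padi6 het group. Points are group means and bars run from the lowest to the highest replicate (3, 3, 2 and 4 replicates). Skp1 lies at 669 to 728 in all groups, and Fbxw7 and Fbxw11 lie at 5.01 to 8.86.

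Between Padi6 knockout and het no transcript of the SCF set passed the test, and the levels of the core subunits were close to each other in the 2 genotypes. A library of 15 oocytes yields a single level per gene, in which fewer oocytes with the transcript and less of it per oocyte cannot be told apart. Skp1, the adaptor, stood at 1540, 1600 and 1620 TMM-scaled CPM in the het replicates and at 1430, 1510 and 1500 in the KO replicates. The 3 KO values were the 3 lowest, and the log2 fold change was -0.10 ± 0.09 (95% interval -0.30 to 0.09, adjusted p = 0.589, edgeR). Cul1, the scaffold, stood at 1540, 1250 and 1390 in the het replicates and at 1540, 1350 and 1400 in the KO replicates, which overlapped fully (log2 0.04, interval -0.19 to 0.26). Rbx1, the RING subunit, stood at 160, 167 and 157 in the het replicates and at 164, 175 and 174 in the KO replicates, again with overlap (log2 0.08, interval -0.12 to 0.28).

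No F-box gene of the set passed the test in the Padi6 line either, and all 7 overlapped between the genotypes. Btrc, which encodes β-TrCP1, had the most negative value of the set, at 346, 260 and 332 TMM-scaled CPM in the het replicates and 294, 260 and 258 in the KO replicates (log2 -0.21 ± 0.11, interval -0.47 to 0.04, adjusted p = 0.362). Its het replicate 2 lay within the KO range. Its paralog Fbxw11, which encodes β-TrCP2, ran from 26.9 to 30.2 in the het and from 25.5 to 31.3 in the KO replicates (log2 0.05, interval -0.23 to 0.33). Fbxw7, whose protein binds phosphorylated cyclin E and MYC, was the most variable member: 27.8, 48.2 and 39.8 in the het replicates and 31.0, 29.4 and 46.1 in the KO replicates (log2 -0.13 ± 0.23, interval -0.63 to 0.37). The replicates of both genotypes interleaved, so the interval leaves room for a change of over 0.5 on the log2 scale in the lower direction for this gene. Fbxo5 ran from 127 to 152 in the het and from 121 to 133 in the KO replicates (log2 -0.15, interval -0.39 to 0.09). Fbxo43, the meiotic paralog of Fbxo5 that holds mature eggs in metaphase arrest, ran from 109 to 146 and from 95.9 to 126 (log2 -0.19, interval -0.47 to 0.10). Both pairs of ranges overlapped. Fbxo30, needed for chromosome condensation and segregation in mouse oocytes, and Fbxo34 had values near 0, at log2 -0.07 (interval -0.29 to 0.16) and -0.02 (interval -0.24 to 0.19).

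Counted together, 0 of 10 members were called in the Padi6 knockouts by edgeR, against 2.41% of the 18228 genes tested. None had an unadjusted p under 0.05, where 3399 of the 18228 genes tested did. DESeq2 and limma-voom called 0 as well, against 7.33% and 1.97% of all genes. The median of their log2 fold changes was -0.08, beside -0.01 over all genes tested, with 7 values below 0 and 3 above. Skp1 was the only 1 of the 10 whose replicates did not overlap between the genotypes, where 23.2% of all genes tested did not overlap.

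**Figure D2:**
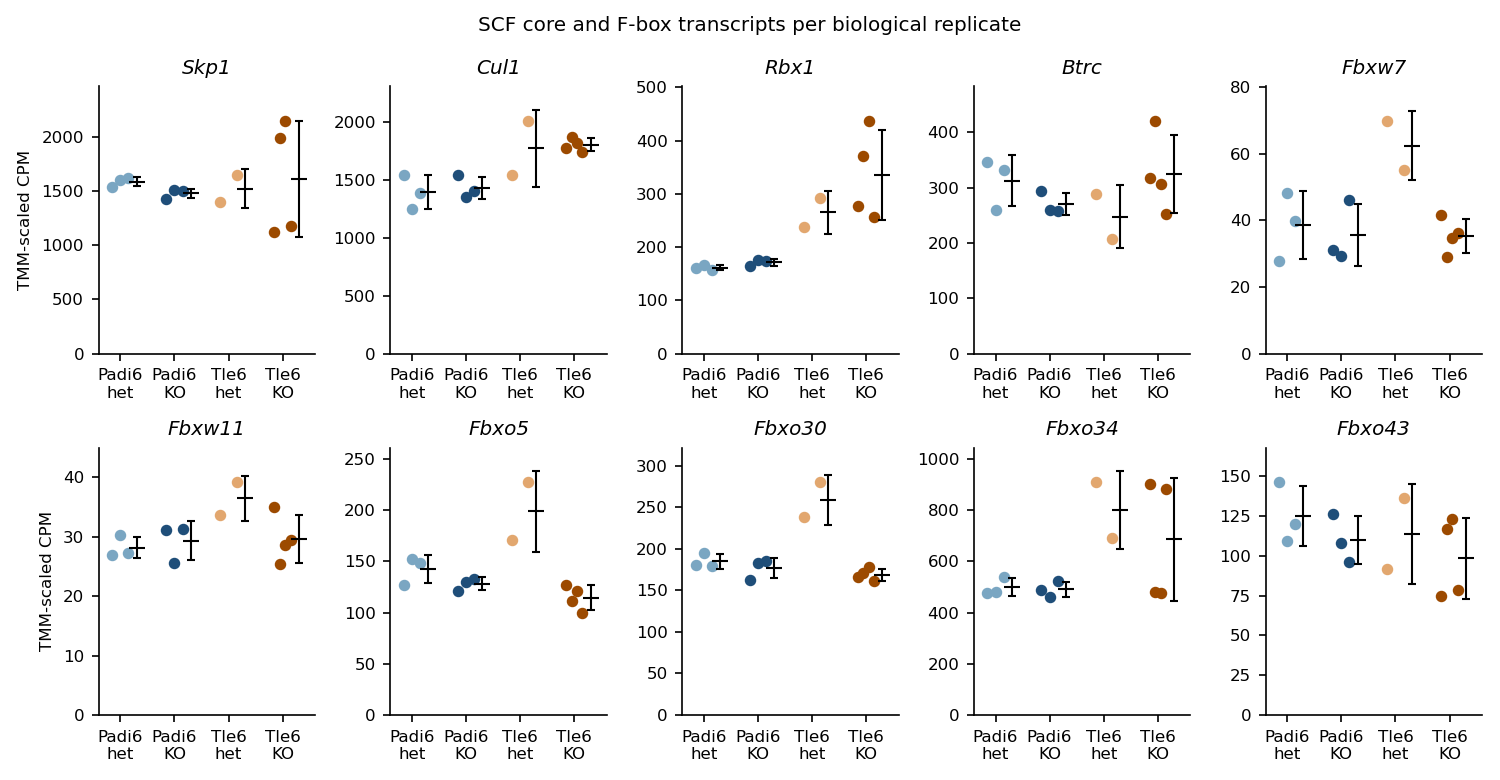
TMM-scaled CPM of each of the 10 members (vertical axes from 0, each with its own scale) in every biological replicate of the 4 groups. Dots are replicates, and the black marks beside them are the mean and SD. In the Padi6 line the replicates of the genotypes overlap for every gene apart from Skp1; in the Tle6 KO group Skp1 and Fbxo34 split into pairs of replicates, 1120 and 1180 against 1990 and 2150 for Skp1.

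In the Tle6 line no member passed the test either, but 3 F-box genes, Fbxw7, Fbxo5 and Fbxo30, were lower in all 4 KO replicates than in both het replicates. Of all genes tested in this line, 29.2% did not overlap between the genotypes, so 3 of 10 is near the background. Fbxo5 stood at 171 and 227 TMM-scaled CPM in the het replicates and at 127, 111, 121 and 99.2 in the KO replicates. The log2 fold change was -0.76 ± 0.19 (interval -1.18 to -0.33, adjusted p = 0.0858, edgeR). Fbxo30 stood at 238 and 280 in the het replicates and at 166, 171, 178 and 161 in the KO replicates, which lay within a narrow band (log2 -0.58 ± 0.16, interval -0.95 to -0.20, adjusted p = 0.117). Fbxw7 stood at 69.8 and 55.0 in the het replicates and at 41.5, 28.9, 34.7 and 36.2 in the KO replicates (log2 -0.78 ± 0.21, interval -1.24 to -0.31, adjusted p = 0.0977). Each of the 3 groups of KO values thus lay wholly below the het values, with only 2 het replicates to set the upper level.

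How firmly these 3 values stand depends on the fit and on 1 library. DESeq2 called all 3 lower, at adjusted p = 0.0121 for Fbxo5, 0.0178 for Fbxw7 and 0.025 for Fbxo30, and so did the fit in which each gene's spread was shared by both lines. Over all genes DESeq2 called 8.54% and the shared-spread fit 9.63%, where edgeR on the line alone called 1.62%. Their sign was negative under all 18 alternatives. Without library B of het replicate 2 the log2 fold change of Fbxw7 was -0.41 (adjusted p = 0.699), and without library A it was -1.04 (adjusted p = 0.051). The same removals gave -0.63 and -0.89 for Fbxo5 and -0.58 and -0.62 for Fbxo30, so Fbxo30 moved least with that replicate. By library, Fbxw7 read 24.3 TMM-scaled CPM in library A of het replicate 2, below all 5 KO libraries (28.6 to 40.5), and 76.9 in its library B. Fbxo30 read 269 and 285 in the same 2 libraries, both above the highest KO library at 176, and Fbxo5 read 185 and 255, both above the highest KO library at 124.

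The remaining members of the Tle6 line overlapped between the genotypes. Cul1 stood at 1540 and 2010 TMM-scaled CPM in the het replicates and at 1780, 1870, 1820 and 1740 in the KO replicates (log2 0.06, interval -0.34 to 0.47). Rbx1 stood at 237 and 293 in the het replicates and at 277, 371, 437 and 256 in the KO replicates, with the 2 highest values in KO replicates 3 and 2 (log2 0.38 ± 0.25, interval -0.19 to 0.95, adjusted p = 0.445). Btrc stood at 288 and 207 in the het replicates and at 317, 421, 307 and 252 in the KO replicates (log2 0.43 ± 0.24, interval -0.12 to 0.98, adjusted p = 0.372). For Btrc the low het value came from library B, at 140 against 297 in library A, and the log2 fold change was 0.15 without library B and 0.62 without library A. That of Rbx1 was 0.60 without library B and 0.19 without library A. Fbxw11 stood at 33.7 and 39.1 in the het replicates and at 35.0, 25.4, 28.6 and 29.5 in the KO replicates (log2 -0.25, interval -0.71 to 0.20), and the same removals gave -0.13 and -0.38. Cul1 stayed at 0.02 and 0.04, and none of these 4 genes was called either way.

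Skp1, Fbxo34 and Fbxo43 varied more within the Tle6 genotypes than between them. Skp1 stood at 1400 and 1650 TMM-scaled CPM in the het replicates and at 1120, 1990, 2150 and 1180 in the KO replicates. Fbxo34 stood at 909 and 692 in the het replicates and at 903, 481, 475 and 885 in the KO replicates. Fbxo43 stood at 91.4 and 136 in the het replicates and at 74.6, 117, 123 and 78.6 in the KO replicates. KO replicates 2 and 3 were thus high for Skp1 and Fbxo43 and low for Fbxo34, and KO replicates 1 and 4 the other way round. The log2 fold changes between genotypes were 0.12 (interval -0.56 to 0.79), -0.18 (-0.88 to 0.53) and -0.17 (-0.78 to 0.45), so the data allow changes of over 0.5 on the log2 scale in either direction for Skp1 and Fbxo34, and in the lower direction for Fbxo43. Without library B of het replicate 2 the value of Skp1 was -0.13 and without library A it was 0.28, so its sign rests on that replicate's libraries. Fbxo34 gave -0.00 and -0.34, and Fbxo43 gave -0.38 and -0.05.

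The same split ran through the technical libraries. Library A of het replicate 2 read 2140 TMM-scaled CPM for Skp1, beside 1960 and 2120 in KO replicates 2 and 3, and the other 6 libraries of the line read 1090 to 1360. It read 474 for Fbxo34, beside 475 and 470, and the other 6 read 845 to 893. It read 165 for Fbxo43, beside 116 and 121, and the other 6 read 72.8 to 114. Skp1 and Fbxo34 thus each formed 2 sets of libraries without overlap, the same 2 sets for both genes, and Fbxo43 did so with a small gap. Fbxw7 formed the same sets, also with a small gap. It read 24.3 in library A of het replicate 2 and 28.6 and 34.3 in KO replicates 2 and 3. The other 6 libraries read 35.1 to 76.9 for Fbxw7. Within its low set the het library thus read below both KO libraries. Rbx1 did not follow these sets: it read 366 and 432 in KO replicates 2 and 3 but 206 in library A and 354 in library B of het replicate 2. The mitochondrially encoded share of counts moved with the split, at 0.475% and 0.461% in KO replicates 2 and 3 and 0.353% in library A of het replicate 2, against 0.185% to 0.275% in the other 6 libraries of the line. The summed granulosa and cumulus markers moved with the split too, at 139 CPM in library A of het replicate 2, 135 and 131 in KO replicates 2 and 3 and 90.1 to 108 in the other 6 libraries. The oocyte markers did so as well, at 21200, 18300 and 17900 CPM against 12000 to 16200. In these 3 libraries 0 to 3 of the 19 granulosa and cumulus markers were at 0, and 1 to 4 in the other 6. The part of these values in the split was not tested.

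**Figure D3:**
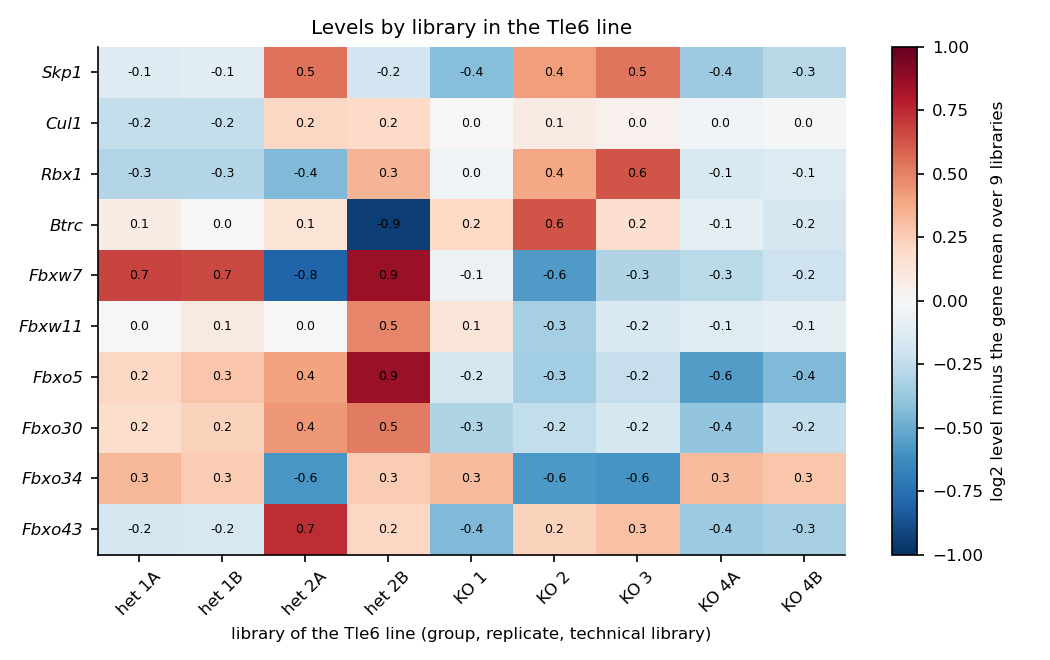
Level of each member (rows) in the 9 libraries of the Tle6 line (columns, named by group, replicate and technical library), as the log2 level minus the gene's mean over the 9 libraries; red is above and blue below that mean. Library het 2A and KO replicates 2 and 3 are red for Skp1 and blue for Fbxo34, where they read 470 to 475 TMM-scaled CPM, and the 4 het libraries are red for Fbxo30 and Fbxo5 at 225 to 285 and 161 to 255.

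As a measure of this spread, the coefficient of variation over the 4 Tle6 KO replicates was 35.0% for Fbxo34, 33.3% for Skp1, 25.7% for Fbxo43 and 25.1% for Rbx1, beside a median of 16.9% over 7940 genes. It was 3.26% for Cul1 and 4.29% for Fbxo30 in the same 4 replicates. Skp1 varied by 2.56% in the Padi6 het and 2.69% in the Padi6 KO replicates, where the medians over the same genes were 10.4% and 9.55%. The same gene was thus steadier than the median gene in Padi6 oocytes and more variable in the Tle6 knockouts, with different strains and numbers of replicates in the lines.

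Counted together, 0 of 10 members were called in the Tle6 knockouts by edgeR, against 1.62% of the 20276 genes tested. Of the 10, 3 had an unadjusted p under 0.05, as did 3852 of the 20276 genes tested. DESeq2 called 3, beside 8.54% of all genes, and limma-voom 0, beside 1.79%. The median log2 fold change of the 10 was -0.17, beside 0.06 over all genes tested, with 6 values below 0 and 4 above. Replicates did not overlap for 3 of the 10 (Fbxw7, Fbxo5 and Fbxo30), beside the 29.2% of all genes given above.

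Whether the effect of the knockout differed between the lines was tested as an interaction over all 12 replicates. It called 0 of 10 members, against 4.32% of the 21392 genes tested. Of the 21392 genes, 4432 had an unadjusted p under 0.05, and so did 2 members. These 2 were Fbxo30, whose Tle6 effect was lower than its Padi6 effect by a log2 difference of -0.56 ± 0.17 (interval -0.93 to -0.18, adjusted p = 0.0885), and Fbxo5, at -0.65 ± 0.21 (interval -1.10 to -0.20, adjusted p = 0.101). DESeq2 called 1 of them, Fbxo30, at adjusted p = 0.025. Over all genes tested DESeq2 called 9.34%. Fbxw7 and Btrc had differences of -0.70 and 0.60, both at adjusted p = 0.245. Without library B of Tle6 het replicate 2 these were -0.29 and 0.36, and without library A -0.97 and 0.78. The same removals gave -0.48 and -0.79 for Fbxo5 and -0.52 and -0.61 for Fbxo30. Of the members with smaller differences, Rbx1 read 0.52 without library B and 0.06 without library A. A difference between the lines in the response of a member to knockout was therefore not resolved by edgeR at this number of replicates.

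Members passed the test in the comparison of the het groups of the 2 lines, where edgeR called 3 of the 10, against 28.5% of all 21392 genes tested. Rbx1 was higher in the Tle6 het than in the Padi6 het oocytes, at 237 and 293 against 160, 167 and 157 TMM-scaled CPM, a log2 difference of 0.72 ± 0.20 (adjusted p = 0.0166, edgeR). Fbxo30 was higher too, at 238 and 280 against 181, 195 and 179 (log2 0.49 ± 0.13, adjusted p = 0.0148), as was Fbxo5, at 171 and 227 against 127, 152 and 148 (log2 0.49 ± 0.16, adjusted p = 0.0375). In each of the 3 genes every Tle6 het value lay above every Padi6 het value. Fbxo34, at 909 and 692 against 477, 482 and 539, and Fbxw7, at 69.8 and 55.0 against 27.8, 48.2 and 39.8, did not overlap either but missed the threshold (log2 0.68, adjusted p = 0.0654, and log2 0.69, adjusted p = 0.0519). Skp1 had a log2 difference of -0.05 (interval -0.58 to 0.47) and Fbxo43 of -0.14 (interval -0.66 to 0.39).

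DESeq2 and limma-voom called the same 3 members and Fbxw7 (adjusted p = 0.0405 and 0.0381), beside 33.3% and 29.4% of all genes tested. The 3 of 10 calls by edgeR stand beside its 28.5%, and the 7 of 10 members without overlap beside 53.9%, so neither share departs far from the background. All 3 were higher in the Tle6 het group, where 15.9% of all genes were called higher, and the members' median was 0.43 beside -0.03. Strain, targeted allele and library preparation cannot be told apart in this comparison. With no filter on low counts edgeR again called 3 members, only 1 of them among those 3, where 6711 of 41354 genes were called. With a minimum mean of 5 CPM it called 2 of those 3, where 4047 of 9540 genes were called. Scaling by total counts moved the median of all genes to -0.34 and ended the 3 calls, with log2 values of 0.40 for Rbx1 and 0.17 for both Fbxo5 and Fbxo30, so these differences are relative to the TMM scale. Without library B of het replicate 2 only Fbxo30 was called (log2 0.45, adjusted p = 0.0387), with Rbx1 at 0.46, Fbxo5 at 0.32, Fbxw7 at 0.28 and Fbxo34 at 0.47, where 17.5% of all genes were called. Without library A of that replicate 5 members were called, Fbxw7 (log2 0.96) and Fbxo34 (log2 0.84) joining the 3, where 32.7% of all genes were called. Leaving out Padi6 het replicate 3, or all of Tle6 het replicate 2, left 0 of the 10 called.

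**Figure D4:**
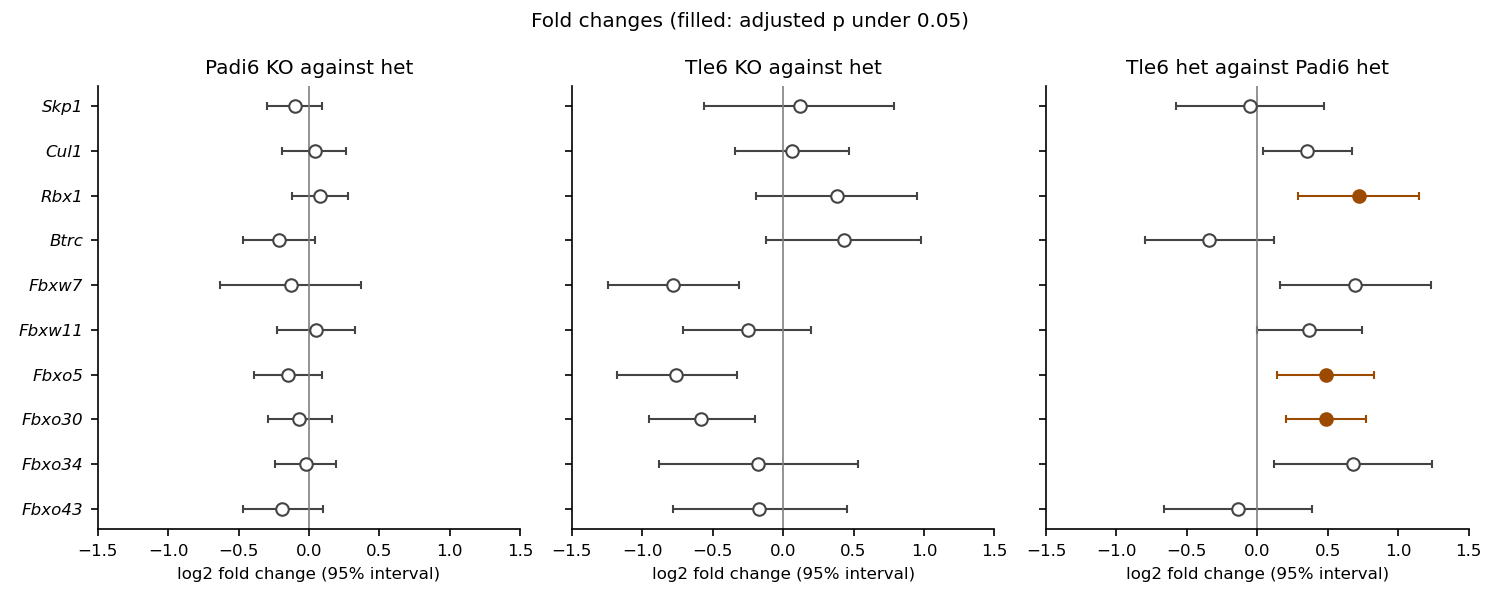
Log2 fold change of the 10 members (rows) with its 95% interval in 3 comparisons: Padi6 KO against het, Tle6 KO against het, and the Tle6 het against the Padi6 het group. Filled symbols mark an adjusted p under 0.05. In the Padi6 line the values lie between -0.21 and 0.08 and every interval includes 0; those of Fbxw7, Fbxo5 and Fbxo30 in the Tle6 line lie below 0 with unfilled symbols, and Rbx1, Fbxo5 and Fbxo30 are filled in the third panel.

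Rbx1 had the widest range of group means of the 10 on the log2 scale, at 161 ± 4.79, 171 ± 6.10, 265 ± 39.6 and 335 ± 84.1 TMM-scaled CPM (SD; n = 3, 3, 2 and 4) in the Padi6 het, Padi6 KO, Tle6 het and Tle6 KO groups. Neighbours in that order overlapped in their replicates within each line, and both groups of the Tle6 line lay above both of the Padi6 line. Of 7416 protein-coding genes with a mean of at least 10 CPM, the 3 whose pattern over the 12 replicates was nearest were Tsg101, Oog4 and Rbm33. Their root mean square difference from Rbx1 was 0.113, 0.128 and 0.130 on the log2 scale, each gene centred on its own mean, where the median of all candidates was 0.574. Tsg101, a subunit of the ESCRT sorting machinery, had group means of 134, 131, 226 and 240 TMM-scaled CPM. These genes were chosen for likeness, and no test applies. Reads given to the pseudogene Rbx1-ps came to 4.61% of those of Rbx1, and reads shared by such copies may be divided between them.

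The machinery around the SCF core was surveyed in 6 lists of genes. Over all genes tested, 3399 of 18228 in the Padi6 line and 3852 of 20276 in the Tle6 line had an unadjusted p under 0.05. The shares called in these lines were 2.41% and 1.62% by edgeR, 7.33% and 8.54% by DESeq2 and 1.97% and 1.79% by limma-voom. For the neddylation cycle and cullin exchange, which switch cullins on and off, 24 of 24 genes were tested in Padi6 oocytes and 23 in Tle6 oocytes, and 0 were called in either by edgeR (1 and 6 at an unadjusted p under 0.05), DESeq2 or limma-voom. The medians were -0.06 and -0.12. For the other cullins and their adaptors, 0 of 11 were called in either line by any of the 3 tools, with medians of -0.08 and -0.14 and 3 and 1 at an unadjusted p under 0.05. For the E2 enzymes of the SCF and the partner ligase ARIH1, 0 of 7 were called by edgeR or limma-voom, with medians of -0.00 and -0.40 and 1 and 2 at an unadjusted p under 0.05, and DESeq2 called 1, Ube2r2, lower in the Padi6 knockouts (edgeR log2 -0.75, adjusted p = 0.0927; 9.80 to 17.4 TMM-scaled CPM in the het and 7.60 to 8.72 in the KO replicates). For the anaphase-promoting complex and its activators, the target of the inhibitors Fbxo5 and Fbxo43, 0 of 18 were called by any of the 3 tools, with medians of 0.01 and -0.06 and 3 and 2 at an unadjusted p under 0.05.

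Among 60 other F-box genes, 54 were tested in the Padi6 line. Of these, 1 rose and 0 fell by edgeR, beside 2.41% of all genes called, and 13 had an unadjusted p under 0.05. DESeq2, which called 7.33% of all genes, called 5 higher and 2 lower, namely Fbxl21, Fbxl6, Fbxo15, Fbxo25 and Fbxo3, and Fbxl18 and Fbxo40. From the same list limma-voom, which called 1.97% of all genes, called Fbxl21 alone. The gene called by all 3 tools was Fbxl21, whose protein regulates the stability of the circadian cryptochromes in mice, at 3.31, 3.41 and 2.37 TMM-scaled CPM in the het replicates and 6.14, 5.65 and 7.17 in the KO replicates (log2 1.06 ± 0.21, adjusted p = 0.036, edgeR). In the Tle6 line 53 were tested. Of these, 1 rose and 1 fell by edgeR and by limma-voom, which called 1.62% and 1.79% of all genes. By edgeR 9 had an unadjusted p under 0.05. DESeq2, which called 8.54% of all genes, called Fbxo8 lower besides. Fbxl12, an F-box gene of the leucine-rich repeat class, stood at 19.0 and 18.4 in the het replicates and at 57.2, 48.2, 53.0 and 54.7 in the KO replicates (log2 1.56 ± 0.19, adjusted p = 7.06e-03). Every KO library, from 47.6 to 55.8, lay above every het library, from 15.7 to 21.8, and the call held without library A (log2 1.64) and without library B (log2 1.39) of het replicate 2. It was lost without all of het replicate 2 (log2 1.49, adjusted p = 0.0505). Between the Padi6 genotypes Fbxl12 had a log2 fold change of -0.06, and the difference between the lines was 1.57 ± 0.21 (adjusted p = 1.25e-03).

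Fbxo3, another F-box gene, stood at 197 and 217 TMM-scaled CPM in the Tle6 het replicates and at 119, 93.2, 103 and 109 in the KO replicates (log2 -0.92 ± 0.17, adjusted p = 0.0386, edgeR). Library A of het replicate 2 read 120 and its library B 286, the KO libraries read 92.0 to 116, and without library B the call was lost (log2 -0.58, adjusted p = 0.337). Leaving out Tle6 het replicate 1 or 2, or KO replicate 2, 3 or 4, also ended the call, at adjusted p of 0.0835 to 0.141. Of the Padi6 replicates the 3 KO values, 136, 148 and 182, lay above the 3 het values, 104, 121 and 118, without passing the test (log2 0.44, adjusted p = 0.105, edgeR). Fbxo3 was called higher there by DESeq2 (adjusted p = 0.0326) and by edgeR with no filter on low counts (adjusted p = 0.0135). The difference between the lines was -1.41 ± 0.21 (adjusted p = 2.11e-03).

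Among genes of known substrates of the member F-box proteins, 1 of 14 tested rose in the Padi6 knockouts and 1 of 16 tested rose in the Tle6 knockouts, by edgeR and by limma-voom. Over all genes edgeR called 2.41% and 1.62% in these lines, and limma-voom 1.97% and 1.79%. DESeq2, which called 7.33% in the Padi6 line, called Notch1 higher besides in the Padi6 knockouts (edgeR log2 0.65, adjusted p = 0.128). In the Padi6 line the gene called by edgeR was Nfkbia, the NF-κB inhibitor that β-TrCP marks for destruction. It stood at 35.7, 47.8 and 47.2 TMM-scaled CPM in the het replicates and 60.9, 75.5 and 83.6 in the KO replicates (log2 0.75 ± 0.16, adjusted p = 0.0415, edgeR). Its KO values all lay above its het values. The calls of Nfkbia and Fbxl21 were ended by leaving out single replicates: any of the 6 for Fbxl21 (adjusted p of 0.0514 to 0.135), and any but KO replicate 1 for Nfkbia (0.0559 to 0.132). The edgeR fit with a spread shared by both lines ended both calls too (adjusted p = 0.456 for Nfkbia and 0.0759 for Fbxl21). That fit called 60 of 21392 genes in the Padi6 line. In the Tle6 line the gene called by edgeR was Ccne1, the gene of cyclin E1, a substrate of FBXW7. Ccne1 stood at 8.35 and 8.44 in the het replicates and 25.8, 34.5, 25.6 and 24.3 in the KO replicates (log2 1.76 ± 0.24, adjusted p = 0.0108, edgeR). By library it read 14.9 and 3.64 in libraries A and B of het replicate 2 and 22.0 to 34.0 in the KO libraries. Without library B the log2 fold change was 1.25 (adjusted p = 0.13), and without het replicate 1 or 2 it was 1.73 in both cases (adjusted p = 0.0684 and 0.076).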

How the data were processed

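The authors deposited, for each of 15 libraries, whole-number read counts per gene, not normalised. Per the labels, each library used polyadenylated RNA of 15 GV oocytes and a QIAseq FX single-cell kit. The submitters' processing notes name bcl2fastq 2.20.0.422, cutadapt 2.8, STAR 2.7.8a, HTSeq 2.0.2 and the mm39 build; the annotation release and strand setting were not given in the sources used here. Antisense neighbours of Cul1, Btrc and Fbxo34 held at most 0.267% of the member's counts.

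Summary lines (5.39 to 7.29% outside genes, 3.85 to 4.2% ambiguous and 12.09 to 14.51% not uniquely aligned) and 92 spike-ins stayed out of library sizes. Spike-in counts were 40 in Padi6 het replicate 3, 4009 to 13772 in the other Padi6 libraries and 5 to 45 in the Tle6 libraries. The cause of this difference was not tested. Symbols were matched for 52093 of 53700 identifiers. Exon lengths came from GENCODE M21. Technical libraries were added together.

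The test was edgeR's quasi-likelihood test (edgeR 4.0.16 under R 4.3.3, two-sided, robust) on TMM-scaled counts after filterByExpr, for each line alone. P-values were adjusted by Benjamini-Hochberg over every gene that entered the fit, and 0.05 was the threshold. The difference between the lines and the comparison of het groups used all 12 replicates. Intervals are 95%, from the t distribution. Printed levels are TMM-scaled CPM over 12 replicates, or over 15 libraries where a library is named. Scripts were tested on simulated counts. Alternatives were RLE, upper quartile and total count scaling, no low-count filter, a minimum mean of 5 CPM, a DESeq2 1.42.0 Wald test, limma-voom (limma 3.58.1), a spread shared by the lines, a replicate block, omitted technical libraries and each replicate left out.

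Besides the members, the targeted genes and marker lists, the text names up to 3 called genes per direction from each pathway list and the 3 genes nearest in pattern to the member with the widest range of group means. The members and lists were chosen with earlier results of these data known.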

Additional observations from a re-analysis of the deposited data

Results flagged for a closer look

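In 2 of the named genes a Tle6 KO replicate stood apart from the other 3 by Dixon's criterion at 95%, which flags about 1 in 20 groups by chance. Ccne1 read 34.5 TMM-scaled CPM in KO replicate 2, and 24.3 to 25.8 in the other replicates of the group. Fbxl21 read 3.48 in KO replicate 3, and 2.87 to 2.88 in the other replicates.

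The effect of the knockout was called different between the Tle6 and Padi6 lines for 3 named genes, tested as an interaction with edgeR over all 12 replicates. The same test called 4.32% of all genes. These 3 were named because they were called in a knockout comparison of the same replicates, and that choice favours such a difference. Fbxl21 and Nfkbia, named by the same rule, were not called (adjusted p = 0.0864 and 0.646). The log2 difference was 1.57 for Fbxl12 (adjusted p = 1.25e-03), -1.41 for Fbxo3 (adjusted p = 2.11e-03) and 1.50 for Ccne1 (adjusted p = 0.018). Without library B of Tle6 het replicate 2 these were 1.45 (adjusted p = 4.39e-03), -1.02 (adjusted p = 0.0802) and 1.04 (adjusted p = 0.2).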

How the results depend on the processing

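The count of 440 called genes in the Padi6 line was 1625 with no filter on low counts, 1336 by DESeq2, 60 with a spread shared by both lines, 859 with the replicate block and 61 to 258 when leaving out 1 replicate, and in each of these fits 0 of 10 members were called. The count of 329 in the Tle6 line was 1447 with no filter (2 members), 1732 by DESeq2 (3 members), 2061 with the shared spread (3 members), 57 with the replicate block, 120 without library B of het replicate 2, 118 with library A only and 119 to 292 when leaving out 1 replicate, with 0 members in the last 4 kinds of fit. Where a Tle6 het replicate was left out, the lone het sample was assumed to vary like the KO replicates. The count of 924 for the difference between the lines was 2078 with no filter, 567 with a mean of at least 5 CPM, 1997 by DESeq2 (1 member), 382 without library B, 369 with library A only and 406 to 1465 when leaving out 1 replicate (0 to 1 member, Fbxo5 without Tle6 het replicate 1). The count of 6107 between the het groups was 4047 with a mean of at least 5 CPM, 3724 without library B (1 member), 3534 with library A only (0 members) and 3953 to 6283 when leaving out 1 replicate (0 to 5 members). Total count scaling called 1 member there, Btrc lower at a log2 difference of -0.64, and leaving out library A called 5. Total count scaling moved the median of all genes to 0.22 in the Tle6 line, 0.25 in the difference and -0.34 between the het groups. The cause of these changes was not tested. No called value changed sign. Members that were called neither way changed sign, or came to 0.00 after rounding, under some alternative. This held in 5, 4, 4 and 2 of 10 cases in the Padi6 line, the Tle6 line, the difference and the het groups. In the Padi6 line Fbxw11 and Fbxo30 reached 0.00 and -0.00 without crossing 0.

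The labels number replicates in both genotypes, but nothing says that a number marks a shared animal or day. With each gene taken relative to its group mean, same-numbered samples correlated at 0.47, 0.03 and 0.25 in the Padi6 line. In the Tle6 line, where only 2 numbers are shared, they correlated at 0.20 and 0.32. With 2 het replicates the deviations from the group mean mirror each other, so each value of het 2 is the negative of that of het 1. Tle6 het 2 correlated at 0.32 with KO 3 as well. The Tle6 values are therefore not separate observations on pairing. Padi6 het 2 correlated best with KO 3 (0.34), and Tle6 het 1 with KO 4 (0.45). The replicate block therefore stands as an alternative; with it 0 of 10 members were called in either line, and Fbxl12, Fbxo3 and Ccne1 missed the threshold in the Tle6 line (adjusted p = 0.0888, 0.253 and 0.0778), while Fbxo3 was called higher in the Padi6 line (log2 0.43, adjusted p = 0.0361). The lowest count of a member in any library was 872, and the Tle6 comparisons rest on 2 het replicates.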
